A study of Mus musculus with 16 samples.

Results

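The odorant receptor genes of mouse chromosome 19 were examined as 1 group of 58 genes. They were chosen by the array's probe identifiers, which carry the chromosome, and by symbols made of Olfr and a number. These criteria found 61 genes, of which Olfr76, Olfr1434 and Olfr1440 were left out, so that 58 of the 1080 receptor genes and of the 19505 genes measured remained. Each had 1 probe set, and all 58 matched a RefSeq gene. The choice used no measured value of these samples.

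The mice carried the S100a5-tauGFP reporter, a green fluorescent protein (GFP) expressed from the gene of a calcium-binding protein that active olfactory sensory neurons switch on. The labels say that 24 male and female mice 7 to 12 weeks old spent 40 hours singly in chambers of clean air flowing at 3.1 L/min. From hour 26 they were given 10-second pulses at intervals of 20 min, of either the agent labelled indole/ionone (the odor arm) or filtered air (the vehicle arm). Tissue of the olfactory mucosa was dissociated in pools of 3 mice and sorted into GFP+ and GFP- cells, which gave 4 GFP+ and 4 GFP- samples in each arm, each on a Clariom S array. All animals carried the reporter, the controls included. The ionone isomer, the doses, the reporter's zygosity and whether the odorants were mixed were not stated. A GFP- sample holds every cell of the mucosa without the reporter, neurons or not.

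Odorant receptors are G protein-coupled receptors of the sensory cilia. Each mature olfactory sensory neuron expresses a single receptor gene from a single allele, so receptor mRNA in a sorted fraction reflects how many neurons of each receptor type it holds and how much mRNA each carries. In bulk samples these cannot be told apart. The genes lie in clusters along the chromosomes, and close relatives in a cluster arose by local duplication. Receptors of 1 cluster can bind unrelated odorants. The Kentucky assay, the design used here, asks which receptors' neurons were activated by an odor in freely behaving mice, by the receptor mRNA found in GFP+ cells.

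The 58 receptors divided evenly between the fractions. Of these, 19 were higher and 19 lower in GFP+ than in GFP- cells in both arms, 5 were called in 1 arm and 15 in neither. A call was an adjusted p under 0.05 in limma (Benjamini-Hochberg over all 19505 genes) on the GFP+ minus GFP- differences of log2 levels within pools. In the odor pools 21 members (36.2%) were higher and 19 (32.8%) lower, against 7.96% and 10.6% of all genes. In the vehicle pools 20 members (34.5%) were higher and 21 (36.2%) lower, against 8.86% and 10.8% of all genes. Among the receptors of other chromosomes, 40.1% were higher and 21.3% lower in both arms, against 32.8% and 32.8% of the members. The median difference of the members was 0.12 in odor and 0.11 in vehicle pools, close to the 0.11 of all genes in either arm, while that of the other receptors was 0.51 and 0.44. No test was made of the difference between the members and the other receptors.

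**Figure D1:**
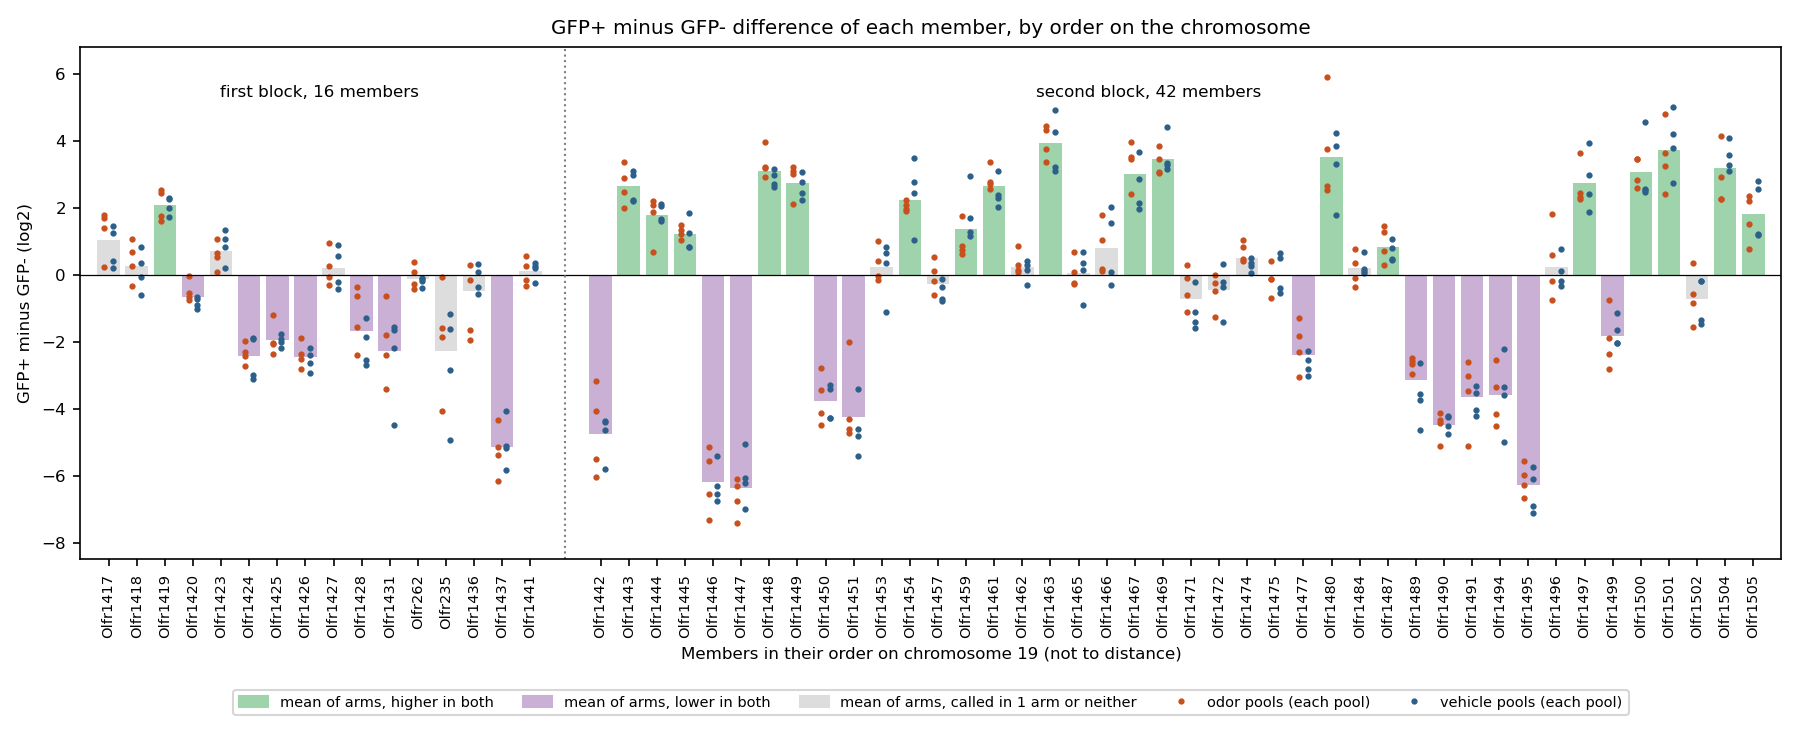
Log2 difference of GFP+ minus GFP- levels (vertical axis) for the 58 members in their order on the chromosome (horizontal axis, not to distance). Bars are the mean of the odor and the vehicle mean as fitted, with no floor at background, points are the 4 pools of each arm. The 19 members lower in both arms reach -6.36 and the 19 higher in both arms reach 3.92, and members of opposite sign are neighbours at several places.

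The members called in both arms had the same sign in all 8 pools, 19 of 19 higher and 19 of 19 lower. This largely follows from the choice, because the calls were made on these same differences. Where a probe was at or under background in one fraction, its difference was also computed with that fraction raised to the background median of each array, which gives a lower bound. By this measure 4 higher members (Olfr1463, Olfr1469, Olfr1500 and Olfr1501) and 8 lower members (Olfr1437, Olfr1442, Olfr1446, Olfr1447, Olfr1451, Olfr1490, Olfr1494 and Olfr1495) differed by over 8-fold in both arms. No share of all genes was set beside these counts, so they only describe the members. Mean fitted differences ran from 0.82 to 3.92 among the higher members and from -6.36 to -0.66 among the lower ones.

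Levels are log2 values of the deposited table, and those of different probes cannot be compared with each other. The table's 23 background probes, which match no mouse gene, had a median of 5.76 to 6.01 on GFP+ arrays and of 5.63 to 6.05 on GFP- arrays. Of the members, 28 exceeded that median on all 16 arrays, 21 on 4 to 15 arrays and 9 on fewer than 4. Medians of whole arrays ran from 6.05 to 6.39. GFP+ and GFP- arrays lay apart on the first principal component (71.3% of the variance). On the second (5.73%) the GFP- sample of odor replicate 3 stood at 58.9, and no other sample was above 24.6. The labels number a pair of vehicle pools 3, and the one with the later pool code is replicate 4 here. Transcripts of the Y chromosome (Eif2s3y, Uty, Kdm5d) differed between pools. In replicate 3 of either arm they were at 2.76 to 4.09, against 6.42 to 12.09 in the other pools.

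The sorted fractions also differed in other cell types. S100a5 itself was enriched in GFP+ cells, by 1.31 ± 0.17 (SE) in odor and 1.27 ± 0.17 in vehicle pools (limma, adjusted p = 0.000184 and 0.000228, n = 4 pools each), the only one of 8 markers of mature sensory neurons called. The summed level of these 8 markers was 20.84 to 20.87 on GFP+ arrays, against 20.34 to 20.80 on GFP- arrays. This sum follows its brightest probes, Stoml3, Omp and Gnal. Stoml3 had a mean of 19.35 in GFP+ and 19.31 in GFP- samples of odor pools. Whether such bright probes could show a difference was not tested. Markers of immature sensory neurons (5 of 7 lower in GFP+ cells in both arms) summed to 16.04 to 16.27 against 16.37 to 16.70. A sum follows the probes with the highest readings, here Stmn2 and Tubb3, which were not called, so it understates the lower markers. The median difference of the 7 was -2.38 in odor and -2.77 in vehicle pools. On GFP+ arrays 1 of the 7 lay under background on all arrays. Of the sustentacular cell markers 4 of 6 were lower, with sums of 13.76 to 14.67 against 15.55 to 16.36. All 6 neutrophil markers were lower in both arms, with sums of 8.05 to 9.91 against 17.95 to 19.39, and 1 of the 6 was under background on all GFP+ arrays. Of the macrophage markers, 2 of 4 were lower in odor and 4 of 4 in vehicle pools, with sums of 8.77 to 10.52 against 13.89 to 16.04. Erythroid markers (3 of 3 lower) summed to 8.73 to 9.10 against 11.77 to 13.56. Basal and dividing cell markers (4 of 6 lower) summed to 7.14 to 7.49 against 10.45 to 12.39, with 5 of 6 under background on all GFP+ arrays. Neurog1, counted among the lower ones, did not exceed background on any array of either fraction. Microvillar markers (5 of 5 lower) summed to 7.23 to 8.07 against 10.23 to 12.46, with 4 of 5 under background on all GFP+ arrays. Chat, counted among the lower ones, was under background on all arrays of both fractions. The part of these cells in the receptor differences was not tested.

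Of the higher members, Olfr1463 had the largest fitted mean difference. Its GFP+ levels in replicates 1 to 4 were 13.36, 11.84, 12.49 and 12.11 in odor pools and 12.44, 12.10, 12.20 and 12.45 in vehicle pools. Its GFP- levels were 9.03, 7.40, 8.74 and 8.74 in odor pools and 7.53, 7.85, 8.99 and 9.34 in vehicle pools. All GFP+ samples exceeded all GFP- samples. The difference was 3.97 ± 0.28 (SE) in odor and 3.87 ± 0.28 in vehicle pools (limma, adjusted p = 1.28e-06 and 1.67e-06).

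Olfr1501 was at 11.87, 10.83, 11.49 and 10.98 in GFP+ and 7.08, 8.43, 7.84 and 7.74 in GFP- samples of odor pools. In vehicle pools it was at 11.28, 11.19, 11.59 and 11.58 in GFP+ and 6.27, 6.99, 8.84 and 7.79 in GFP- samples. The fractions did not overlap, and the differences were 3.52 ± 0.37 and 3.93 ± 0.37 (limma, adjusted p = 3.32e-05 and 1.32e-05). Olfr1480 varied more between pools. Its differences were 3.76, 2.64, 5.90 and 2.54 in odor and 4.23, 3.85, 3.31 and 1.79 in vehicle pools, and the highest of these came with a GFP- level of 3.76, under background. Its probe exceeded background on 3 of 8 GFP- arrays, and with the floor it was at least 8.27-fold higher in odor and at least 7.60-fold in vehicle pools. Olfr1469 differed by 3.03 to 3.84 in odor and 3.15 to 4.42 in vehicle pools.

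Olfr1448 was among the least variable. It was at 11.95, 12.15, 12.32 and 12.56 in GFP+ and 8.73, 9.23, 8.36 and 9.37 in GFP- samples of odor pools. In vehicle pools it was at 12.07, 12.01, 11.67 and 12.04 in GFP+ and 9.09, 8.84, 8.95 and 9.41 in GFP- samples. Its differences were 3.32 ± 0.17 and 2.88 ± 0.17 (limma, adjusted p = 1.08e-07 and 3.37e-07). Olfr1467 differed by 3.34 and 2.66, Olfr1500 by 3.09 and 3.03, and Olfr1497 by 2.66 and 2.79 in odor and vehicle pools.

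Olfr1449 and Olfr1504 were not above background in any GFP- sample, so only a lower bound can be given for them. The bound sets the mean of the bright fraction against the higher of the background median and the probe's own value on each array of the other fraction. Olfr1449 was at least 4.88-fold higher in GFP+ cells in odor and at least 4.08-fold in vehicle pools (limma, adjusted p = 1.01e-06 and 2.09e-06). Olfr1504 was at least 4.16-fold and at least 4.60-fold higher (adjusted p = 1.74e-05 and 3.65e-06). Olfr1444 was in this state in vehicle pools (at least 2.07-fold, adjusted p = 0.000103), and no fold is given for Olfr1445, which exceeded background on 4 of 16 arrays.

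The other higher members were Olfr1419, Olfr1443, Olfr1454, Olfr1459, Olfr1461, Olfr1487 and Olfr1505. Their differences ran from 0.94 (Olfr1487) to 2.85 (Olfr1461) in odor pools and from 0.70 (Olfr1487) to 2.62 (Olfr1443) in vehicle pools. Olfr1459 was called near the threshold in the odor arm, with differences of 0.86, 1.75, 0.73 and 0.61 in replicates 1 to 4. Its difference of 0.99 ± 0.28 (limma, adjusted p = 0.0284) lost the call without odor replicate 1 (adjusted p = 0.0704), 2 (0.131) or 3 (0.0588). The call of Olfr1487 in vehicle pools (adjusted p = 0.0263) ended without vehicle replicate 1 (0.0928) or 3 (0.107).

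**Figure D2:**
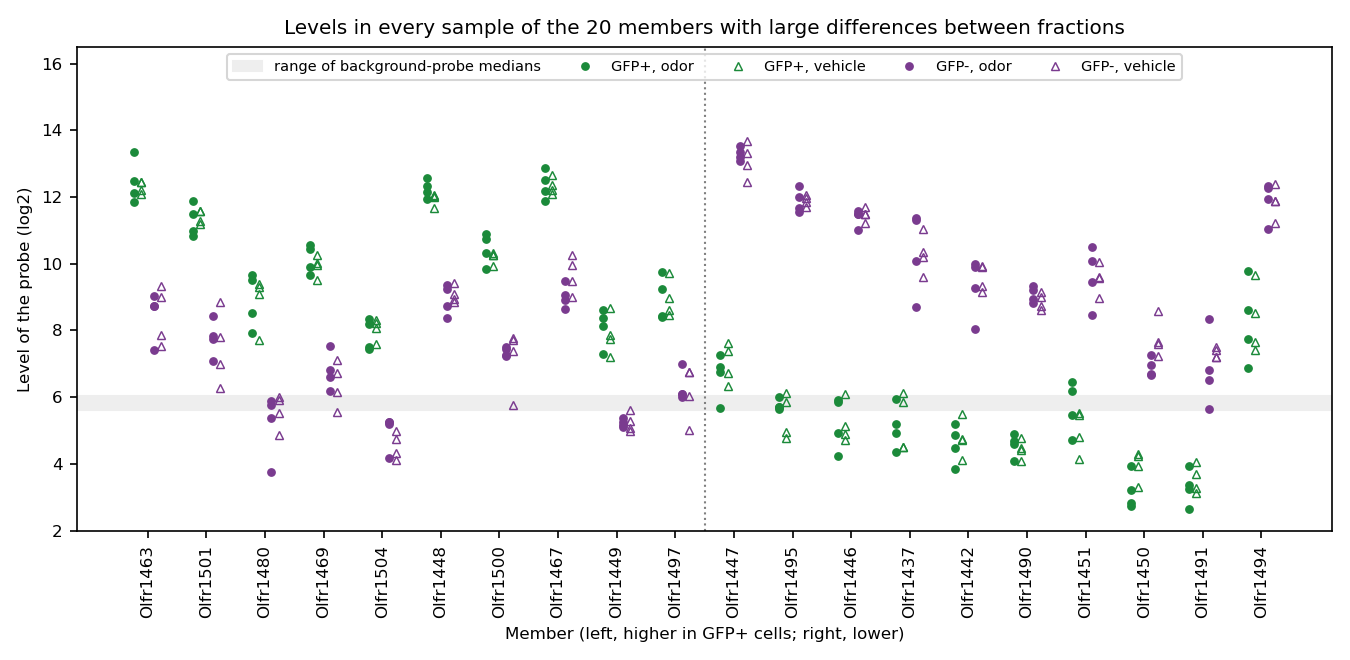
Log2 level (vertical axis) in each of the 16 samples for the 10 highest and the 10 lowest members by the mean difference of both arms, among those called in both arms. The grey band spans the background medians of the arrays (5.63 to 6.05). Fractions do not overlap for any of the 20 members, which were picked by these same differences, so this is no separate evidence. The GFP+ levels of most lower members lie near or under the band.

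Most of the lower members came close to or under background in GFP+ cells. Olfr1447 was at 6.89, 6.77, 7.25 and 5.68 in GFP+ and 13.20, 13.52, 13.35 and 13.08 in GFP- samples of odor pools. In vehicle pools it was at 7.39, 6.72, 7.61 and 6.33 in GFP+ and 12.44, 12.95, 13.69 and 13.33 in GFP- samples. Its difference was -6.64 ± 0.28 in odor, the lowest of the members there, and -6.09 ± 0.28 in vehicle pools (limma, adjusted p = 2.33e-08 and 4.24e-08).

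Olfr1495 was at 5.70, 5.71, 6.01 and 5.66 in GFP+ and 11.68, 11.99, 11.56 and 12.32 in GFP- samples of odor pools. In vehicle pools it was at 4.95, 5.87, 6.12 and 4.79 in GFP+ and 12.05, 11.96, 11.86 and 11.70 in GFP- samples. In GFP+ cells it exceeded background on only 1 of 4 arrays in each arm. It was at least 61.3-fold lower there in odor and at least 63.1-fold in vehicle pools (limma, adjusted p = 1.23e-08 and 9.49e-09). Olfr1446, the neighbour of Olfr1447, exceeded background on 2 and 1 of 4 GFP+ arrays and was at least 43.4-fold and at least 47.2-fold lower (adjusted p = 1.06e-07 and 9.26e-08).

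Olfr1437 was at 5.20, 4.93, 4.36 and 5.94 in GFP+ and 11.36, 10.08, 8.70 and 11.30 in GFP- samples of odor pools. None of these GFP+ values exceeded background, so it was at least 22.1-fold lower in GFP+ cells there (limma, adjusted p = 1.92e-07). In vehicle pools, with 2 of 4 GFP+ arrays above background, it was at least 20.5-fold lower (adjusted p = 2.64e-07). Olfr1442 was at least 10.6-fold lower in odor and at least 13.4-fold in vehicle pools (adjusted p = 5.60e-06 and 4.84e-06), and Olfr1490 at least 9.09-fold and at least 8.25-fold (1.10e-08 and 1.13e-08).

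Olfr1450 was at least 2.00-fold lower in odor and at least 3.80-fold in vehicle pools, and Olfr1491 at least 1.93-fold and at least 2.80-fold, and the highest of these 4 limma adjusted p values was 1.02e-05. Their GFP- levels, from 5.66 to 8.58, were themselves near background. Olfr1451 was at least 13.1-fold lower in vehicle pools (adjusted p = 9.17e-06) and at least 11.4-fold in odor pools, where 2 of 4 GFP+ arrays exceeded background. Olfr1494 stayed above background on all 16 arrays and differed by -3.65 ± 0.39 and -3.54 ± 0.39 (limma, adjusted p = 3.79e-05 and 4.82e-05). Its GFP+ levels ran from 6.87 to 9.79 over the pools, and its GFP- levels from 11.03 to 12.40. Of the lower members of the second block not yet described, Olfr1489, above background on 3 of 8 GFP+ arrays, was at least 5.91-fold and at least 6.54-fold lower, and Olfr1477 differed by -2.12 ± 0.24 and -2.67 ± 0.24. Olfr1499 exceeded background on only 2 arrays, and no fold is given for it.

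Along the chromosome the members formed 2 blocks, separated by 6 protein-coding genes that are not receptors. The first block, from Olfr1417 to Olfr1441, held 16 members, of which 1 (Olfr1419) was higher and 7 were lower in both arms, 3 were called in 1 arm and 5 in neither. The second, from Olfr1442 to Olfr1505, held 42 members, of which 18 were higher and 12 lower, 2 were called in 1 arm and 10 in neither. The lower members of the first block were Olfr1420, Olfr1424, Olfr1425, Olfr1426, Olfr1428, Olfr1431 and Olfr1437. With Olfr1442 of the second block they made up 8 lower members without a higher one between them, though 6 uncalled members lay among them. The difference between the blocks was not tested.

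In the first block the lower members other than Olfr1437 had mean differences of both arms from -2.47 (Olfr1426) to -0.66 (Olfr1420). Olfr1424 differed by -2.36 ± 0.22 and -2.48 ± 0.22, Olfr1425 by -1.91 ± 0.18 and -1.97 ± 0.18, and Olfr1426 by -2.40 ± 0.17 and -2.53 ± 0.17 in odor and vehicle pools. The highest of these 6 limma adjusted p values was 1.26e-05. Olfr1420 differed by only -0.51 ± 0.15 in odor pools (adjusted p = 0.0341), and the call ended when odor replicate 1 (0.134), 2 (0.138) or 4 (0.106), or vehicle replicate 2 (0.0512) or 4 (0.0506), was left out. It also ended when each array was centred on its median (adjusted p = 0.162). In vehicle pools Olfr1420 differed by -0.81 ± 0.15 (adjusted p = 0.00202).

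Olfr1427, also of the first block, did not pass the test in either arm, with differences of 0.20 ± 0.25 in both. It was at 12.59, 13.01, 12.64 and 12.58 in GFP+ and 12.91, 12.76, 11.70 and 12.64 in GFP- samples of odor pools, so the fractions overlapped. Olfr1423 was called in vehicle pools alone, at 0.85 ± 0.20 (limma, adjusted p = 0.0114) against 0.58 ± 0.20 (0.0732) in odor pools, and that call ended without vehicle replicate 1 (0.0558) or 2 (0.0722).

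In the second block, signs alternated in short steps. Olfr1443, Olfr1444 and Olfr1445 were higher, Olfr1446 and Olfr1447 lower, Olfr1448 and Olfr1449 higher, and Olfr1450 and Olfr1451 lower, with no other member between them. Longer stretches followed. From Olfr1454 to Olfr1469 all 6 called members were higher, with 4 uncalled ones among them. From Olfr1489 to Olfr1495 all 5 members were lower, and from Olfr1500 to Olfr1505 all 4 called members were higher, with Olfr1502 uncalled.

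The widest gap between neighbours was that of Olfr1447 and Olfr1448, whose mean differences, with the floor at background, were -6.33 and 3.10 and lay at least 9.42 apart. By the same measure Olfr1442 and Olfr1443 were at least 6.22 apart, Olfr1445 and Olfr1446 at least 5.50, and Olfr1449 and Olfr1450 at least 3.62. No annotated gene that codes for another protein and no other receptor gene lay between the 2 genes of any of these 4 pairs. Olfr1477 and Olfr1480 were at least 5.38 apart, with 2 other receptor genes between them. These gaps are descriptions of the pools measured, taken between different probes as differences of differences.

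Coding sequences of near relatives were set beside their values, to show how alike genes with like and unlike distributions are. The tables used here gave a window around the start for 55 of 58 members (RefSeq, GRCm38.p6), and in 48 of them the window's start was the start codon, so that the first 50 coding bases could be read. Among the 1128 pairs of these 48 genes the median identity over the 50 bases was 34.0%, counted position by position without gaps. The lines give pairs of alike genes, 5′ to 3′, with capitals at bases that differ within the pair.
Olfr1446: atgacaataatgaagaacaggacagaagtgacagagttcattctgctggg
Olfr1447: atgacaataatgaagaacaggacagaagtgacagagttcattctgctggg
Olfr1501: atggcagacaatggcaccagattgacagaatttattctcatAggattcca
Olfr1504: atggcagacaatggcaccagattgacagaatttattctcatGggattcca
Olfr1480: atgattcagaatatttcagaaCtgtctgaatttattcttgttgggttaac
Olfr1487: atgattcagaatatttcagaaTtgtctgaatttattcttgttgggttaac
Olfr1502: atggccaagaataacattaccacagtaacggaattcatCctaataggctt
Olfr1505: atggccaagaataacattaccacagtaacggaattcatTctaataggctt

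These stretches lie at chr19:12890526-12890575 (Olfr1446), chr19:12901729-12901778 (Olfr1447), chr19:13839122-13839171 (Olfr1501) and chr19:13888159-13888208 (Olfr1504) on the minus strand. On the plus strand are chr19:13529675-13529724 (Olfr1480), chr19:13619164-13619213 (Olfr1487), chr19:13861795-13861844 (Olfr1502) and chr19:13919022-13919071 (Olfr1505). Olfr1446 and Olfr1447, identical here, lay 0.17 apart in their fitted mean differences (0.83 with the floor at background), and Olfr1501 and Olfr1504 lay 0.53 apart (1.60 with the floor). Olfr1480 and Olfr1487 were 2.68 apart (2.17 with the floor) with 1 differing base, although both were higher in GFP+ cells. Olfr1502 and Olfr1505 were 2.55 apart (2.50 with the floor), the first uncalled and the second higher. Probe sequences were not used here, so the separate readings of such near copies are uncertain.

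In only 4 of the 14 pairs with at least 90% identity were both genes called in both arms, and none of these 4 had one gene higher and the other lower. Olfr1471 and Olfr1474, which share 49 of 50 bases, were each called in 1 arm and in opposite directions. The fitted gaps of the 14 pairs had a median of 1.045 and reached 3.29 (Olfr1480 and Olfr1484), or a median of 1.30 and a highest value of 3.12 with the floor. Over all 1128 pairs the median was 2.64, or 2.27 with the floor. Pairs share genes and are not independent, and no test was made. Of the 41 pairs with at least 80% identity, 11 had both genes called in both arms, and 7 of these in opposite directions. Except for Olfr1499 and Olfr1505, the opposite pairs set Olfr1446 or Olfr1447, identical here, against Olfr1444, Olfr1461 or Olfr1463. Olfr1499 exceeded background on only 2 arrays. No share of opposite calls over all called pairs was set beside the counts at either threshold, so they only describe these pairs. Olfr1461 and Olfr1444 were opposite relatives of Olfr1447, each with 8 differing bases in 50, shown in capitals.
Olfr1461: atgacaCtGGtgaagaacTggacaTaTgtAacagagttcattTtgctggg
Olfr1444: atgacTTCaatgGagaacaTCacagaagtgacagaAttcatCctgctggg

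These lie on the plus strand at chr19:13165016-13165065 (Olfr1461) and chr19:12861777-12861826 (Olfr1444). Against the mean difference of -6.36 for Olfr1447, Olfr1461 had 2.65 and Olfr1444 had 1.78, so the gaps were 9.01 and 8.15, or 8.98 and 7.42 with the floor. Olfr1463 (40 of 50 bases shared with Olfr1447) lay 10.28 away, or 10.25 with the floor, the largest gap among the opposite pairs by either measure.

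**Figure D3:**
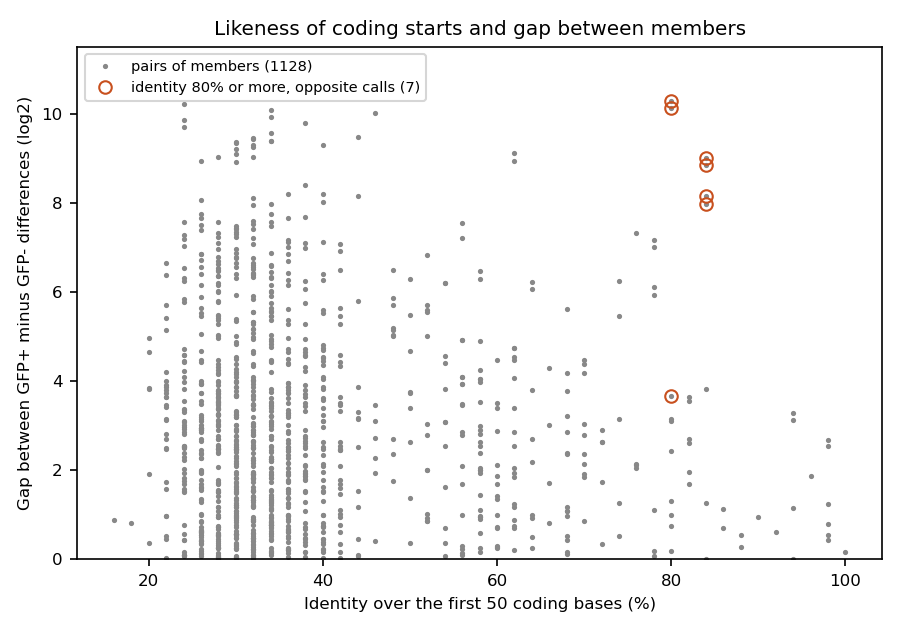
Identity over the first 50 coding bases in percent (horizontal axis) and the gap between fitted mean GFP+ minus GFP- log2 differences, with no floor at background (vertical axis) for 1128 pairs of 48 members. Circles mark the 7 pairs of at least 80% identity called in opposite directions in both arms, which begin at a gap of 3.66 (1.77 with the floor), and no pair of at least 90% identity has a gap above 3.29.

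Upstream sequence could be read for 7 members whose annotated start lies before the coding sequence, namely Olfr1419, Olfr1426, Olfr1437, Olfr1442, Olfr1443, Olfr1477 and Olfr1496. Receptor promoters are known for sites of LIM-homeodomain factors such as Lhx2 and of Olf/Ebf factors. The 250 bases before each start were searched on both strands for 3 homeodomain core motifs and for the core of Olf/Ebf sites. The homeodomain core TAATGA was in 3 of 7 windows (Olfr1426, Olfr1437 and Olfr1477). The core TAATTG was in 2 (Olfr1426 and Olfr1437), and the core TAATTA in 1 (Olfr1496). The Olf/Ebf core CCCNNGGG was in 1 (Olfr1443). No match of one motif overlapped another. Over 32851 windows of the same length these motifs, in the same order, were in 8.59%, 7.17%, 4.84% and 11.8%. Windows whose start is the start codon were not left out of these. Over the 259 receptor windows whose start is not the start codon, the motifs were in 31.7%, 25.9%, 17.8% and 7.34%. The 250 bases of Olfr1437, lower in GFP+ cells, and of Olfr1443, higher, are printed with the matches in capitals.
Olfr1437: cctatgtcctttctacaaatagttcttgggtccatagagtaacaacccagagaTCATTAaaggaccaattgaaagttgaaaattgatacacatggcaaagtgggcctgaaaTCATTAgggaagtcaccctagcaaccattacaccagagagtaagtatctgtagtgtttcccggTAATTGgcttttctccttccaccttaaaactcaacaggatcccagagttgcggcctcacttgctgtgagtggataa
Olfr1443: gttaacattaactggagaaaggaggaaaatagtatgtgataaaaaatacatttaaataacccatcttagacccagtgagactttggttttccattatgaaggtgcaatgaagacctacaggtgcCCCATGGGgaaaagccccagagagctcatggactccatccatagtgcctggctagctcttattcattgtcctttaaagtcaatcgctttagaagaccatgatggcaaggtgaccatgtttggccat

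They lie at chr19:12325067-12325316 on the minus strand (Olfr1437) and chr19:12677916-12678165 on the plus strand (Olfr1443). The matches end 192, 134 and 71 bases before the start of Olfr1437, and 119 bases before that of Olfr1443. Olfr1443 was at 9.94, 9.38, 9.86 and 9.64 in GFP+ and 7.05, 7.40, 6.50 and 7.16 in GFP- samples of odor pools, and differed by 2.68 ± 0.23 there and by 2.62 ± 0.23 in vehicle pools (limma, adjusted p = 5.64e-06 and 6.87e-06). With 7 windows, no relation between motifs and direction could be examined.

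The arms, which were different mice, ordered the members nearly alike. Differences in odor and in vehicle pools had the same sign in 57 of 58 members, and across the members their Pearson correlation was 0.991, a description over genes measured on the same arrays. The exception, Olfr1475, stood at -0.13 ± 0.23 and 0.04 ± 0.23 and was under background on all arrays. The sign count and the correlation were not computed for all genes or for the other receptors. They are therefore not shown to be particular to the members.

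**Figure D4:**
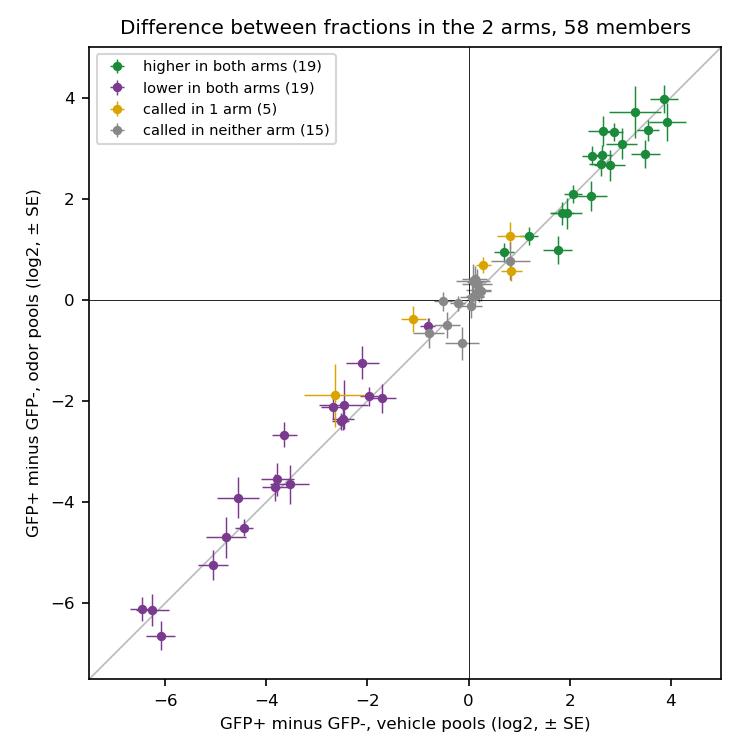
GFP+ minus GFP- log2 difference in vehicle pools (horizontal axis) and odor pools (vertical axis) for the 58 members, each with its SE in both directions. Points follow the diagonal of equal differences, from Olfr1447 and Olfr1495 at the lower left to Olfr1463 at the upper right.

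Exposure to indole/ionone was set against filtered air in 3 ways, in GFP+ cells, in GFP- cells and in the GFP+ minus GFP- difference. In none of them did a member pass the test. Among all genes the percentages called were 0.0% in GFP+ cells, 0.00513% in GFP- cells (1 gene, which is no member) and 0.0% for the difference. At an unadjusted limma p under 0.05 there were 3, 2 and 1 members, and 1070, 697 and 654 of all genes. The 95% confidence interval of a member's change had a median half-width of 0.61 in GFP+ cells, 0.61 in GFP- cells and 0.80 for the difference. These fits do not pair the arms by replicate number. Changes smaller than these would mostly not have been distinguished from 0 even without adjustment. The intervals are not adjusted for the 19505 genes tested, and a call needs a larger change. The absence of calls therefore does not exclude changes above these half-widths.

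Olfr1489 had the smallest unadjusted p for the difference. Its GFP+ levels were 5.59, 6.12, 5.57 and 6.12 in odor pools and 4.58, 6.05, 4.59 and 4.49 in vehicle pools, around or under background. The arms overlapped through vehicle replicate 2. Its difference was 0.97 less negative in odor pools (95% confidence interval 0.20 to 1.75, limma, unadjusted p = 0.0186, adjusted p = 1.0), and in GFP+ cells it was 0.93 higher (0.22 to 1.64, unadjusted p = 0.0154, adjusted p = 0.891).

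Olfr1428 was at 11.83, 12.12, 12.73 and 13.27 in GFP+ samples of odor pools and at 12.33, 11.53, 11.53 and 11.44 in those of vehicle pools. The arms overlapped, through odor replicates 1 and 2 and vehicle replicate 1. Its GFP+ level was 0.78 higher in odor pools (95% confidence interval 0.10 to 1.45, limma, adjusted p = 0.891). Its GFP+ minus GFP- difference was -1.24 ± 0.32 in odor and -2.10 ± 0.32 in vehicle pools, and the test of this change gave an adjusted p of 1.0. The odor call of Olfr1428 itself ended without odor replicate 1 (adjusted p = 0.0898) or 2 (0.0737).

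Olfr1450 had the smallest unadjusted p in GFP- cells and did not pass the test. Its GFP- levels were 6.71, 7.25, 6.67 and 6.95 in odor pools and 7.64, 7.24, 7.60 and 8.58 in vehicle pools, which overlapped through a single sample of each arm. The change was -0.87 in GFP- cells (95% confidence interval -1.47 to -0.27, limma, unadjusted p = 0.00848, adjusted p = 1.0) and -0.76 in GFP+ cells (-1.39 to -0.13, adjusted p = 0.891), where all levels were under background. Its GFP+ minus GFP- difference therefore changed by only 0.11 (-0.73 to 0.95).

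The remaining members with small unadjusted p values were Olfr1471, Olfr1459 and Olfr1474 for the difference and Olfr1467 and Olfr1457 in GFP- cells. The difference of Olfr1471 was 0.71 higher in odor pools (95% confidence interval -0.07 to 1.49), that of Olfr1459 0.77 lower, at -0.77 (-1.63 to 0.09), and that of Olfr1474 0.40 higher (-0.06 to 0.85). In GFP- cells Olfr1467 changed by -0.66 (-1.26 to -0.05) and Olfr1457 by -0.32 (-0.76 to 0.12). Each had an adjusted p of 1.0. Over the 58 members the change of the difference ran from -0.77 to 0.97, with a median of 0.11 against 0.01 for all genes and 0.07 for the receptors of other chromosomes.

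**Figure D5:**
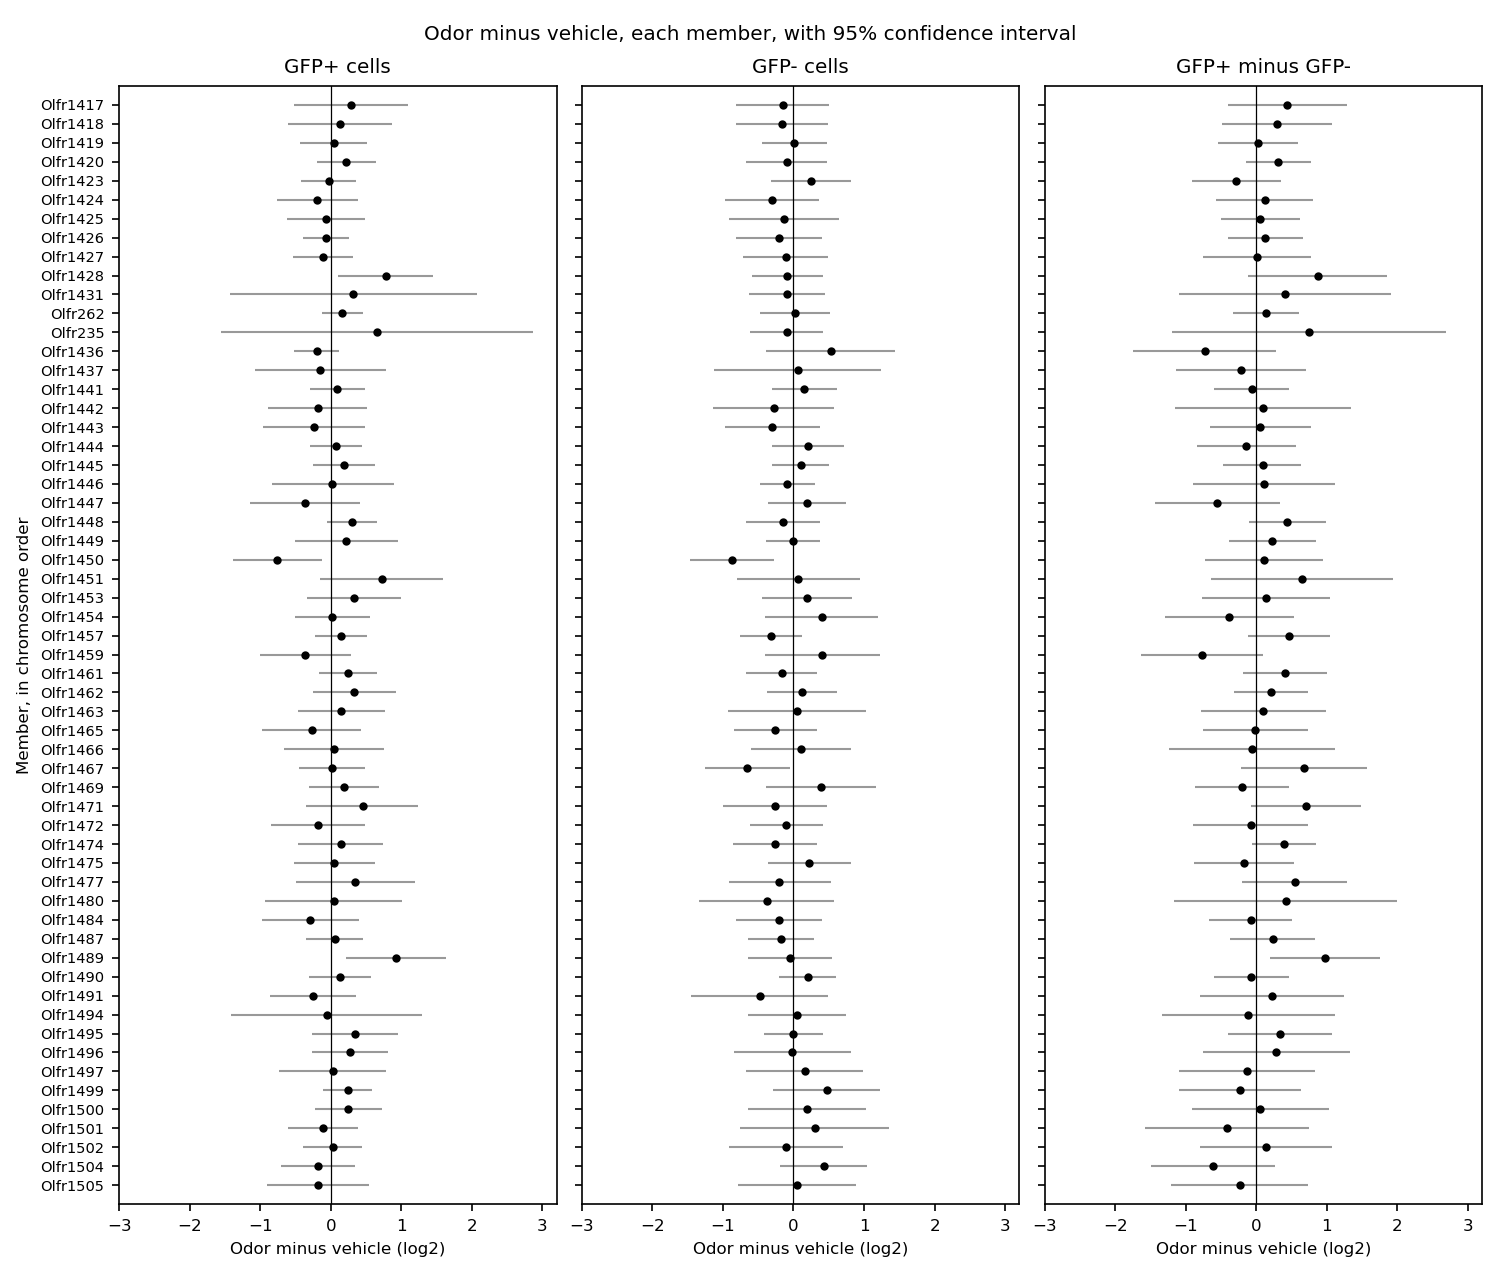
Odor minus vehicle change in log2 units (horizontal axes) with its 95% confidence interval for the 58 members, in GFP+ cells (left), GFP- cells (middle) and the GFP+ minus GFP- difference (right). Most intervals include 0, those that do not number 3, 2 and 1, and no member passed the test after adjustment.

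The 5 members called in 1 arm were Olfr1417 and Olfr1474 in odor pools and Olfr1423, Olfr235 and Olfr1471 in vehicle pools. Olfr1417 differed by 1.27 ± 0.27 in odor (limma, adjusted p = 0.00629) and 0.83 ± 0.27 in vehicle pools (0.054). Olfr1474 differed by 0.69 ± 0.15 in odor (adjusted p = 0.00579) and 0.29 ± 0.15 in vehicle pools (0.195). Olfr1471 differed by -0.38 ± 0.25 in odor (0.326) and -1.09 ± 0.25 in vehicle pools (0.0097), a call that ended without vehicle replicate 3 (0.0504) or 4 (0.0523). The arms were not shown to differ for any of the 5, as the test of the difference above gave no call.

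Olfr235 and Olfr1431, whose first 50 coding bases share 47, had an uneven pattern over the pools. They are named here after their values were seen. Olfr235 was at 10.00, 9.94, 7.41 and 12.09 in GFP+ samples of odor pools and at 10.32, 9.33, 6.55 and 10.61 in those of vehicle pools. Olfr1431 was at 7.52, 7.45, 5.28 and 9.16 and at 7.78, 7.49, 5.01 and 7.86. In both genes and both arms the lowest GFP+ sample was replicate 3, whose pools also had the low Y-linked levels given above. In GFP- samples Olfr235 ran from 11.47 to 12.23, with replicate 3 at 11.47 and 11.48, and Olfr1431 from 8.71 to 9.86, with replicate 3 at 8.71 and 9.48. The part of the sex of the mice in this pattern was not tested. The difference of Olfr235 was -1.89 ± 0.62 in odor (limma, adjusted p = 0.0584) and -2.64 ± 0.62 in vehicle pools (0.0111), and the vehicle call ended without vehicle replicate 3 (0.0515). That of Olfr1431 was -2.07 ± 0.48 (0.0107) and -2.47 ± 0.48 (0.00336), and the odor call ended without odor replicate 3 (0.0671).

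Of the 15 members called in neither arm, 7 (Olfr262 and Olfr1441 among them) were under background on all 16 arrays. Olfr1436 exceeded background on 3 arrays. The other 7, Olfr1418, Olfr1427, Olfr1466, Olfr1472, Olfr1484, Olfr1496 and Olfr1502, were above it on 13 to 16 arrays, and their differences ran from -0.79 to 0.83. Olfr1484 was at 10.72 to 12.43 in GFP+ and at 10.37 to 11.72 in GFP- samples of odor pools, which overlapped.

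Between the receptors lie genes of other kinds. Of 10 such genes measured, 1 was higher (Glyat, a glycine acyltransferase) and 3 were lower in odor pools (Mpeg1, Fam111a and Gm4952), and 0 and 2 (Mpeg1 and Fam111a) in vehicle pools. Glyat and Gm4952 were under background on all 8 arrays of the odor arm, and no fold is given for them. Mpeg1, which encodes a perforin-like protein of macrophages, differed by -3.65 ± 0.18 and -4.18 ± 0.18 (limma, adjusted p = 5.98e-08 and 2.35e-08). Osbp, an oxysterol-binding protein, differed by 0.10 ± 0.14 and 0.12 ± 0.14.

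Of 16 olfactory transduction genes, which act downstream of the receptors, 2 were higher and 1 lower in odor pools, and 4 higher and 1 lower in vehicle pools, with median differences of 0.21 and 0.25 against 0.11 for all genes in either arm. Of all genes, 7.96% were higher and 10.6% lower in odor pools, and 8.86% and 10.8% in vehicle pools. Ano2, the calcium-activated chloride channel of the cilia, differed by 0.44 ± 0.12 and 0.38 ± 0.12 (limma, adjusted p = 0.0267 and 0.0494), and Pde1c, a phosphodiesterase that removes cAMP, by 0.67 ± 0.12 and 0.61 ± 0.12. Rgs2, a regulator of G protein signalling, was under background on all GFP+ arrays and at least 12.2-fold and at least 14.7-fold lower (adjusted p = 2.33e-08 and 1.86e-08). Adcy3, the ciliary adenylyl cyclase, stood at 0.14 ± 0.13 and 0.29 ± 0.13 and did not pass the test. Of 19 genes of receptor choice and trafficking, 0 were higher and 1, the lamin B receptor gene Lbr, was lower in both arms, at -1.62 ± 0.18 and -1.71 ± 0.18 (adjusted p = 5.35e-05 and 3.38e-05). Lhx2, the LIM-homeodomain factor of receptor promoters, stood at 0.12 ± 0.13 and 0.11 ± 0.13.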

How the data were processed

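The deposited table held log2 values of 28846 probe sets on 16 arrays. Per the submitters' processing notes, the authors made them with Affymetrix Expression Console. Its version, background correction and normalization were not given in the sources used here, and the log2 scale was judged by the values' range. Probe sets were named through the platform annotation (19572 with 1 symbol, 0 with several, 9274 with none) and RefSeq identifiers. For the 55 genes with several probe sets, the one with the highest mean was used. The number of arrays limits the precision.

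GFP+ minus GFP- differences within the 8 pools were fitted with limma 3.58.1 in R 4.3.3, both arms sharing 1 moderated variance per gene. Odor and vehicle were compared in 8 GFP+ and in 8 GFP- samples. Tests were two-sided, adjusted over 19505 genes, and tested on simulated data first. The fractions of a pool come from the same mice, and their deviations correlated at 0.109 to 0.249. Replicate numbers are also shared between the arms. Same-numbered GFP+ samples correlated at 0.114 to 0.242, GFP- samples at 0.0664 to 0.332 and within-pool differences at 0.0974 to 0.305. The labels do not say that the numbers mark shared handling, and pairing by number remains possible. The low Y-linked levels given above were shared by the pools numbered 3 in both arms. The reported odor fits enter no pairing between the arms, so their SEs and p-values leave it out. A replicate block, which enters it, was run as an alternative and also gave no member call. A floor at the background medians, for bounds, was added after seeing the data. P-values reflect the spread over pools, each of 3 mice.

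Named members were the 10 highest and 10 lowest called in both arms, those with the smallest p for odor, the 5 brightest, and neighbours with opposite calls. Protein identities were not used here, and coding starts, chosen after seeing the data, took their place. The members, lists and rules were chosen with earlier results of these data known. Alternatives were other scalings, a filter on dim probes, other variance models, probe means, all arrays in 1 fit, no pool block, a replicate block, and leaving out each pool.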

Additional observations from a re-analysis of the deposited data

Results flagged for a closer look

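Over 116 groups of 4 pools (58 members in 2 arms), 4 held a GFP+ minus GFP- difference whose gap to its neighbour took up more of the group's range than Dixon's 95% critical value allows, and chance gives about 1 in 20 groups. Olfr1451 was at -2.01 in odor replicate 3, against -4.71 to -4.30 in the other odor pools. Olfr1497 was at 3.65 in the same pool, against 2.25 to 2.43. Olfr1469 was at 4.42 in vehicle replicate 1, against 3.15 to 3.35. Olfr1500 was at 4.56 in that pool, against 2.47 to 2.56. The 4 values keep the sign of their groups, and 2 pools hold them all.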

How the results depend on the processing

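The counts of members called stayed within 1.5 times the reported ones in all 170 alternative counts, many of which were counts of 0 for odor against vehicle. None of the 1561 recomputed differences of called or named members changed its direction, while 38 lost the call. Probe means could not change a member's levels, as each member had 1 probe set. In odor pools 19 to 23 members were higher and 17 to 20 lower, and in vehicle pools 18 to 22 and 18 to 21. Odor against vehicle gave 0 members in either fraction and in the difference under every alternative run. With the replicate block, which pairs odor and vehicle pools by number, the counts were also 0. It narrowed the GFP+ change of Olfr1489 from 0.93 ± 0.32 to 0.93 ± 0.23 (SE), with a limma adjusted p of 0.757. For the GFP+ minus GFP- difference, SEs fell from 0.36 to 0.21 for Olfr1471 and from 0.39 to 0.21 for Olfr1459. Both had an adjusted p of 0.991, and their intervals given above were computed without the pairing. SEs rose for Olfr1474 in the difference (0.21 to 0.23). They also rose for Olfr1428 in GFP+ cells (0.31 to 0.33) and Olfr1457 in GFP- cells (0.2 to 0.22). Of 40 calls in odor pools 6 were lost in at least 1 of up to 17 alternatives (Olfr1417, Olfr1420, Olfr1428, Olfr1431, Olfr1459 and Olfr1474). Of 41 calls in vehicle pools 5 were lost (Olfr1423, Olfr1431, Olfr235, Olfr1471 and Olfr1487). Without moderated variances 9 calls ended, with adjusted p from 0.0522 to 0.115 (Olfr1417, Olfr1428, Olfr1431 and Olfr1459 in odor pools, and Olfr1423, Olfr1431, Olfr235, Olfr1471 and Olfr1487 in vehicle pools). With all 16 arrays in 1 fit 2 odor calls ended, Olfr1420 (0.109) and Olfr1474 (0.0722). Without the pool as a block 4 ended (0.0569 to 0.169), and with trend and robust settings 1, Olfr1420 (0.0631). Centring each array on its median moved the median difference of all genes from 0.115 to 0.338 in odor and from 0.109 to 0.259 in vehicle pools. The filter on dim probes kept 11865 genes and 49 members.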
